A study of Brassica napus with 9 samples.

Results

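A set of 254 of the 91830 *B. napus* genes in the count table was highly expressed in young pods and fell at least 2-fold between 8 and 25 days after flowering (DAF) in each of 3 lines. A member had a mean normalised count of at least 1000 over the 8 and 25 DAF libraries and a log2 ratio of 25 to 8 DAF of -1 or below in the cultivar Youngsan and in both transgenic lines, CpFatB4 and CpFatB5. The minimum alone was passed in all 3 lines by 5365 genes, of which the 254 are 4.73%. Another 3 genes met both conditions and were left out, because they differed at least 2-fold from Youngsan at 8 DAF in both transgenic lines. In the single lines, 6.88% (Youngsan), 6.56% (CpFatB4) and 8.16% (CpFatB5) of the 5365 genes fell that far. The genes were thus chosen by their normalised counts at 8 and 25 DAF, and the size of that fall is given as a description and not as a result.

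RNA was sequenced from whole pods, that is pod wall and developing seeds together, of greenhouse-grown plants at 8, 25 and 45 DAF, which the sample labels call days after fertilization. Youngsan is the untransformed control cultivar, and CpFatB4 and CpFatB5 are homozygous T4 plants of the same cultivar that carry an acyl-ACP thioesterase of *Cuphea paucipetala* under the seed-specific napin promoter. RNA of 3 preparations was pooled for each of the 9 libraries, so a line at a stage has 1 library and no replicate. A single line at a single stage, and the difference between lines at 1 stage, therefore have no test. Stages can be compared over the 3 lines, which then stand in for replicates although they differ in genotype, and this was done for 45 against 25 DAF, the comparison the rule did not use.

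The libraries held between 38677752 counts (CpFatB5 at 45 DAF) and 88259440 counts (Youngsan at 25 DAF) over the 2 raw columns of each. For members with at least 100 raw counts, the SD of the log2 ratio of these columns was between 0.032 and 0.096. What the 2 columns are is not explained in the sources used here. They were treated as repeat measurements of a library, which say nothing of the spread between plants. In whole pods, fewer cells of a type and less RNA per cell cannot be told apart. Summed normalised counts of 3 genes of the seed storage protein napin were at most 409.2 at 8 DAF and at least 433402 at 25 DAF in all lines. At 45 DAF the napin sums were 233120 (Youngsan), 2493060 (CpFatB4) and 98522 (CpFatB5). Sums of 2 genes of another seed storage protein, cruciferin, were 181862, 426453 and 50993 at 25 DAF in the same order. By 45 DAF the cruciferin sums had risen to 503111, 3671620 and 211312. The part of these unequal seed transcripts in the results below was not tested.

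The aerial surface of a plant is covered by a cuticle, in which waxes are made by epidermal cells from very-long-chain fatty acids. Acyl-CoA synthetases activate these acids, elongases lengthen them, and separate branches then yield alkanes, secondary alcohols, primary alcohols and wax esters. Lipid transfer proteins are small secreted proteins that bind lipids and are abundant in epidermis. Lipoxygenases of the LOX2 type oxidise plastid fatty acids in the first step of jasmonate synthesis. Gene functions given here were taken from *Arabidopsis*, through the closest *Arabidopsis* gene that the study's supplementary tables name. Those descriptions come from a list of lipid metabolism genes and from shortened lists of the strongest differences. Genes of other kinds therefore seldom have one. As used here, the tables describe 31 of the 254 genes, of which 23 are listed under fatty acid elongation and wax biosynthesis and 8 as lipoxygenase. Another 61 genes have only a broad Gene Ontology (GO) term, and 162 have neither, so these are named by their identifiers.

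The 254 genes took 5.73% (Youngsan), 5.66% (CpFatB4) and 5.48% (CpFatB5) of all counts at 8 DAF. At 25 DAF their shares were 1.15%, 1.19% and 1.26%, and at 45 DAF 0.735%, 0.465% and 0.517% in the same order. Wilson 95% intervals of these shares, which cover counting error only, were at most 0.0112 percentage points wide. Their median normalised count was 3514, 3189 and 3271 at 8 DAF, 691.2, 751 and 716 at 25 DAF, and 478, 449 and 288.1 at 45 DAF. The lines were thus close to each other at the first 2 stages, and the lowest median was that of CpFatB5 at 45 DAF. Median log2 ratios of 25 to 8 DAF were -2.0 (Youngsan), -1.80 (CpFatB4) and -1.89 (CpFatB5), against 0.36, 0.30 and 0.23 over the 5365 genes. A fall of at least 4-fold in all 3 lines was found in 84 genes and one of at least 8-fold in 31.

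**Figure D1:**
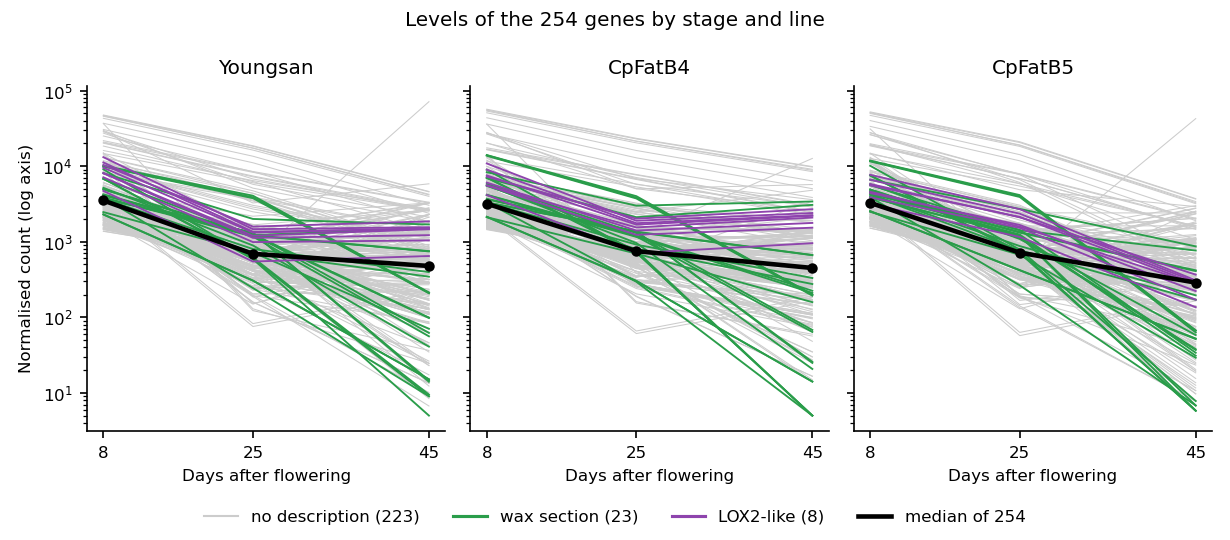
Normalised counts (log axis) of the 254 genes at 8, 25 and 45 DAF, with 1 panel per line and 1 line per gene. Green marks the 23 genes of the wax section, purple the 8 LOX2-like genes, grey the other 223, and black the median, which passes from 3514 to 691.2 to 478 in Youngsan. The purple lines go down after 25 DAF only in the CpFatB5 panel, and most green lines end below the median in all panels.

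The 3 values given for a line below are normalised counts at 8, 25 and 45 DAF, in this order, and the 3 values given for a stage are those of Youngsan, CpFatB4 and CpFatB5. The members nearest the threshold fell barely 2-fold in 1 of the lines. BnaC01g22400D had 3514, 1175 and 625 (Youngsan), 2234, 1115 and 720.1 (CpFatB4), and 2594, 1018 and 274 (CpFatB5), and its log2 ratio in CpFatB4 was -1.0. The largest of the 3 ratios was -1.01 in BnaC05g15180D, -1.03 in BnaA01g35430D, -1.03 in BnaC03g00160D and -1.04 in BnaA03g00260D. Just outside lay BnaAnng32340D at -0.99, and BnaA06g06960D, BnaA07g05560D and BnaC07g07120D, all at -0.98. Closest of all was BnaA02g12840D at -0.996, with 6591, 3028 and 482 (Youngsan), 6658, 3338 and 1086 (CpFatB4), and 6676, 2820.5 and 399 (CpFatB5). The 3 genes left out for their level at 8 DAF were BnaC03g73080D, BnaC07g06340D and BnaA07g02490D. BnaC03g73080D had 5186, 10462 and 13638 at 8 DAF in Youngsan, CpFatB4 and CpFatB5, so the transgenic libraries were the higher ones.

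Wax and lipid transfer genes were the largest group among the 31 described members. The list that names them holds lipid genes only, and 223 members have no description, so the main functions of the set are not known. Of 68 genes of the wax and elongation section that passed the minimum, 23 were members (33.8%, against 4.73% of all genes past it), 5 rose at least 2-fold in all lines by 25 DAF and 40 did neither. None of the other 10 lipid sections held a member. Plastidial fatty acid synthesis had 42 genes past the minimum, of which 39 rose at least 2-fold in all lines between 8 and 25 DAF, and triacylglycerol biosynthesis had 34, of which 12 rose. The section on triacylglycerol and fatty acid degradation had 31 such genes and none that fell or rose in all lines. These sections overlap in part, and several genes are near-identical copies, so the counts are not of independent genes.

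The members of the wax section belong to 8 families, described here in the order of the pathway. At the start of the pathway, long-chain acyl-CoA synthetase LACS1 was represented by all 3 of its copies past the minimum. BnaA04g26960D had 4956, 1251 and 99.1 (Youngsan), 4178, 1198 and 225 (CpFatB4), and 4926, 1149.5 and 37.8 (CpFatB5). BnaC04g51420D, with 4938, 4144 and 4888 at 8 DAF in the 3 lines, was nearly equal to it, and BnaC03g25940D was lower at 2466, 2111 and 2489. All 3 copies were highest at 8 DAF and lowest at 45 DAF in every line. Summed over the copies, the fall from 8 to 25 DAF was 3.89, 3.42 and 4.18-fold in Youngsan, CpFatB4 and CpFatB5, and from 25 to 45 DAF 11.9, 5.15 and 28.3-fold.

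Alkane formation needs CER1 and CER3, which act together in *Arabidopsis*. The CER1-like gene BnaCnng09200D had 5168, 892 and 40.9 (Youngsan), 5596, 962 and 20.7 (CpFatB4), and 5765, 1087 and 58.2 (CpFatB5). All 4 CER3-like genes past the minimum, BnaA02g08090D, BnaC02g11200D, BnaA10g11680D and BnaCnng19590D, were members, and their summed counts were 15605, 3940.3 and 2234 (Youngsan), 13805, 4414 and 1936 (CpFatB4), and 17535, 4312 and 1193 (CpFatB5). Log2 ratios of 25 to 8 DAF were -2.53, -2.54 and -2.41 for CER1 and -1.99, -1.64 and -2.02 for CER3. After 25 DAF the CER1-like gene fell 21.8, 46.4 and 18.7-fold in Youngsan, CpFatB4 and CpFatB5, and the CER3-like genes 1.76, 2.28 and 3.61-fold. At 45 DAF the CER3-like sum thus stayed above 1000 in all lines, while the CER1-like gene was below 100 in all of them.

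MAH1, a cytochrome P450 that hydroxylates alkanes to secondary alcohols and ketones, had the largest fall of the wax section families up to 25 DAF. Its 4 copies past the minimum were all members, and 3 of them, BnaA09g15080D, BnaA09g15090D and BnaA09g15100D, have consecutive identifiers on chromosome A09. BnaA09g15090D had 9092, 8970.2 and 10129 at 8 DAF and 589, 722 and 786 at 25 DAF in Youngsan, CpFatB4 and CpFatB5. Mean raw counts of this gene at 45 DAF were only 4.5, 2.5 and 4.0. A mean raw count under 3 was set to 3 throughout, as for all 4 copies in CpFatB4 at 45 DAF. Summed over the copies, the level fell 13, 10.6 and 11.6-fold from 8 to 25 DAF. From 25 to 45 DAF the summed fall was 62.9-fold in Youngsan, at least 125-fold in CpFatB4 and at least 95.5-fold in CpFatB5, where 2 copies were below the floor. So few counts were left at 45 DAF that the lines could not be ranked for this gene.

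Primary alcohols are made by the fatty acyl-CoA reductase CER4, and wax esters by the synthase WSD1. The CER4-like homoeologs BnaA01g03200D and BnaC01g04460D had 3700.2, 3304 and 3864 and 3704, 3314 and 3872 at 8 DAF in Youngsan, CpFatB4 and CpFatB5. They had 1316, 1371 and 1207 and 1316, 1366 and 1215 at 25 DAF, and at 45 DAF mean raw counts of both were between 3 and 15.5. Of the described genes they had the smallest mean fall up to 25 DAF, with log2 ratios of -1.49, -1.27 and -1.68 in BnaA01g03200D, and were among the largest falls afterwards, with -6.55, -5.74 and -7.70. WSD1-like BnaA05g12980D had 2303, 305 and 15.1 (Youngsan), 2139, 302 and 14.1 (CpFatB4), and 2543, 418 and 52.4 (CpFatB5), and its partner BnaC06g12160D followed it closely. Here CpFatB5 was the highest library at 45 DAF, with log2 ratios to Youngsan of 1.79 and 1.77, the 2 largest of all 254 genes. These ratios rest on mean raw counts of 13.5 and 13.5 in Youngsan and 27 and 26.5 in CpFatB5. The same 2 genes in CpFatB4 were at -0.10 and -0.10.

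The lipid transfer protein genes among the members, 7 of the 22 past the minimum, fell in 2 distinct ways. The 5 LTP3-like members, BnaA03g13140D, BnaCnng42990D, BnaCnng42980D, BnaA03g09530D and BnaC03g12050D, were all of the LTP3-like copies past the minimum. BnaA03g13140D had 10147, 4063 and 213 (Youngsan), 14014, 4006 and 199 (CpFatB4), and 11827, 4139.7 and 66.9 (CpFatB5). Their sum fell 2.69, 3.78 and 3-fold by 25 DAF and then 18.9, 19.4 and 56.3-fold by 45 DAF, so the later fall was the larger one in every line. The 2 LTP1-like members, BnaAnng27610D and BnaC04g06760D, instead stayed within 2-fold after 25 DAF in Youngsan and CpFatB4. BnaC04g06760D had 6776, 1226 and 1504 (Youngsan), 6926, 2109 and 3072 (CpFatB4), and 5604, 1417 and 764 (CpFatB5). The other 4 LTP1-like genes past the minimum showed the opposite order, with log2 ratios between -0.55 and 0.29 up to 25 DAF and between -6.28 and -3.11 afterwards. Copies of 1 *Arabidopsis* gene therefore differed in the stage at which they fell.

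**Figure D2:**
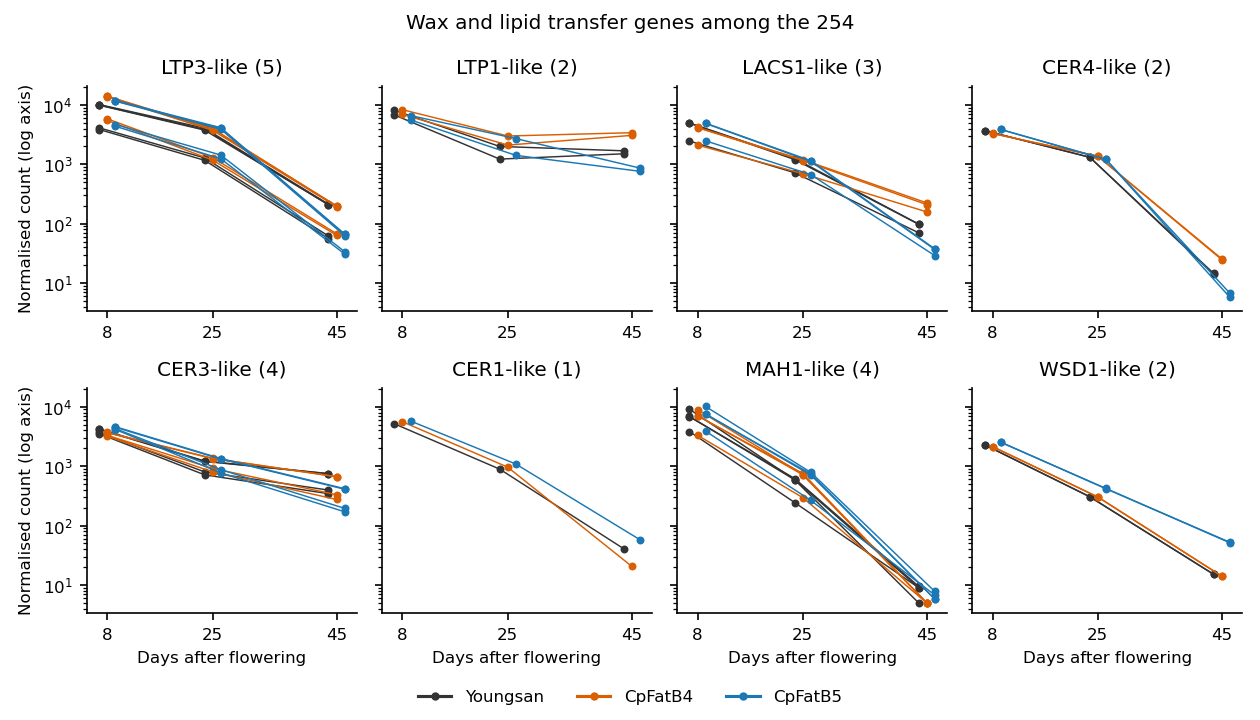
Normalised counts (log axis) of the 23 wax section genes at 8, 25 and 45 DAF in Youngsan (black), CpFatB4 (orange) and CpFatB5 (blue), with the number of genes of each family in its title and the lines set slightly apart along the axis. MAH1-like and CER4-like genes end below 30 in all libraries, whereas CER3-like and LTP1-like genes end above 100.

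Genes of the elongation steps that come before these branches mostly did not fall 2-fold. The 2 enoyl-CoA reductase genes past the minimum (AT3G55360-like) had log2 ratios of 25 to 8 DAF between -0.02 and 0.34 over the 3 lines, and the 4 ketoacyl-CoA reductase genes (AT1G67730-like) between 0.24 and 1.20. Among ketoacyl-CoA synthases, which set the chain length made, the 4 AT2G26250-like genes lay between -0.58 and -0.16. The 2 AT2G16280-like genes lay between -1.16 and -0.69 and missed the threshold in CpFatB4 only. The AT1G25450-like gene BnaA09g28510D fell furthest of these in Youngsan, at -1.22, with -0.68 in CpFatB4 and -0.84 in CpFatB5. The AT4G34520-like pair (KCS18, the seed elongase of erucic acid) rose by log2 ratios of at least 11.04. The 2 copies of the wax exporter AT1G51500 (ABCG12) were between -0.58 and -0.18. The 3 AT3G08770-like lipid transfer protein genes missed the threshold only in CpFatB5, where the ratio was about -0.85.

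Lipoxygenase genes made up the other described group. The 8 members are like AT3G45140 (LOX2), and their descriptions come from a table of the strongest differences of these same samples. In the order of their level at 8 DAF in Youngsan they were BnaA07g24860D, BnaC06g26190D, BnaC02g15950D, BnaA07g38550D, BnaA02g11430D, BnaA07g38540D, BnaA07g24880D and BnaCnng38620D. BnaA07g24860D had 13155, 1465 and 1558 (Youngsan), 10854, 1893 and 2398 (CpFatB4), and 7685, 2693 and 308 (CpFatB5). BnaC02g15950D had 10367, 1586 and 1858 (Youngsan), 7263, 2021 and 2696 (CpFatB4), and 5805, 2106 and 367 (CpFatB5). Reads shared between these copies could not be separated.

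The level of the LOX2-like genes at 8 DAF followed the order Youngsan, CpFatB4, CpFatB5, with sums of 72259, 55995 and 41698. At 25 DAF the order was turned around, with sums of 9585, 12248 and 15203. The fall up to 25 DAF was therefore 7.54, 4.57 and 2.74-fold in Youngsan, CpFatB4 and CpFatB5. From 25 to 45 DAF all 8 stayed within 2-fold in Youngsan, at log2 ratios between 0.07 and 0.29, and in CpFatB4, at 0.31 to 0.44. In CpFatB5 all 8 fell in that interval, with log2 ratios between -3.16 and -2.52, against a median of -0.94 over the 5365 genes. A fall in CpFatB5 alone was common, with 14.3% of the 5365 genes and 8.27% of the members (21 genes, 8 of them LOX2-like). The 8 ratios in CpFatB5 stayed at or below -1.84 under all 4 scalings tried. The CpFatB5 library at 45 DAF also had the fewest counts and the lowest napin sum of the libraries at that stage, and the part of either in this fall was not tested. At 45 DAF their sum was 10777 (Youngsan), 15889 (CpFatB4) and 2052 (CpFatB5). The other 2 LOX2-like genes, BnaA07g19600D and BnaC06g18870D, fell too little in CpFatB5 by 25 DAF (log2 ratios of -0.57) to be members, and then had ratios of -2.25 there.

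**Figure D3:**
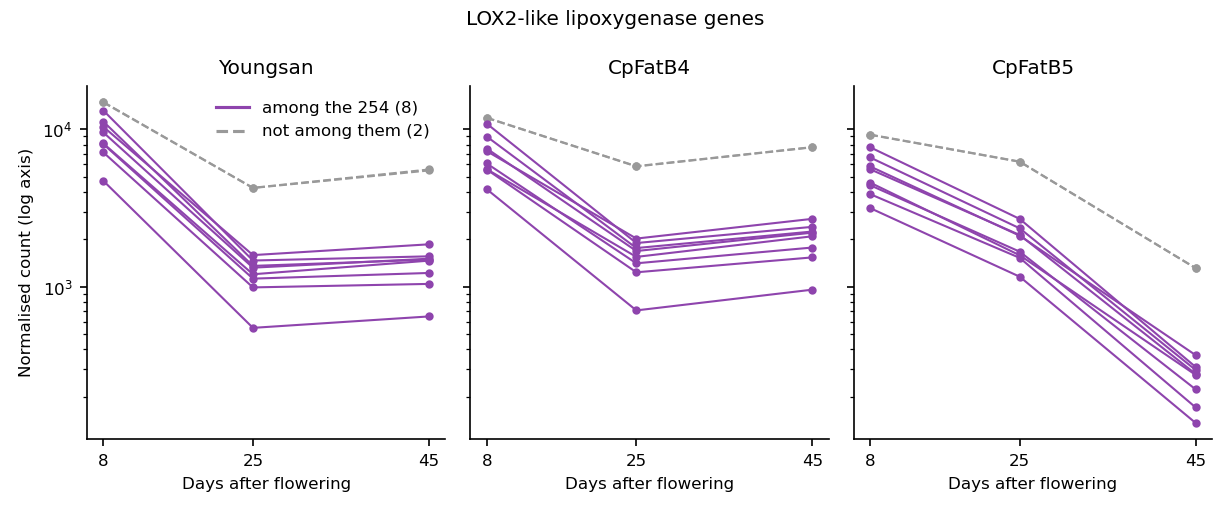
Normalised counts (log axis) of the 10 LOX2-like genes at 8, 25 and 45 DAF, with 1 panel per line. Solid purple lines are the 8 genes among the 254 and dashed grey lines the 2 that are not. Levels at 45 DAF are close to those at 25 DAF in Youngsan and CpFatB4 and below 400 for the 8 genes in CpFatB5.

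The most abundant members at 8 DAF have no description. BnaA04g08640D led with 47523, 18622 and 4626 (Youngsan), 56711, 23342 and 9877 (CpFatB4), and 52268, 21034 and 3720.1 (CpFatB5). BnaC04g30870D, BnaAnng36210D, BnaA04g08570D, BnaC04g30810D, BnaC04g34390D and BnaA04g27920D followed the same course at somewhat lower levels, and BnaC04g30810D carries the GO term lyase activity. Each of these 7 fell by a mean log2 ratio between -1.49 and -1.31 up to 25 DAF, the shallow end of the set, and by -2.07 to -1.91 afterwards. BnaA07g30010D and BnaC06g33320D completed the 10 highest together with BnaA05g14890D.

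BnaA05g14890D combined a high early level with the strongest fall of all members. It had 36538, 304 and 40.9 (Youngsan), 35979, 385 and 129 (CpFatB4), and 31057, 463 and 12.6 (CpFatB5). Its level thus fell 120.3, 93.4 and 67.1-fold in Youngsan, CpFatB4 and CpFatB5 by 25 DAF. BnaA06g01540D, with the GO term hydrolase activity, had 14191, 123 and 36.4 (Youngsan), 14286, 154 and 59.7 (CpFatB4), and 12139.9, 188 and 23.3 (CpFatB5). BnaC06g05340D was almost equal to it, with 15019, 13991 and 12688 at 8 DAF and 129.6, 161 and 190.2 at 25 DAF. These 3 genes stood apart, as the next largest mean log2 ratios were -5.40 in BnaA05g11930D and -5.35 in BnaC04g14260D, against -6.45 in BnaC06g05340D. BnaC05g37800D and BnaA05g24100D were less even between lines. BnaC05g37800D had 152, 467 and 147 at 25 DAF in Youngsan, CpFatB4 and CpFatB5, the CpFatB4 library being the highest. BnaA03g23810D, with the GO term response to chemical, had 2898, 241 and 279.9 (Youngsan), 5348, 259.7 and 107 (CpFatB4), and 4995, 184 and 143 (CpFatB5), so its 8 DAF level was lowest in Youngsan.

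From 25 to 45 DAF, a comparison the rule did not use although it shares the 25 DAF libraries, many of the members fell again. A further fall of at least 2-fold was found in 135 members in Youngsan (53.1%, against 32.9% of the 5365 genes), in 126 in CpFatB4 (49.6%, against 22.2%) and in 161 in CpFatB5 (63.4%, against 47.7%). Median log2 ratios of 45 to 25 DAF were -1.17, -0.98 and -1.91 in the 3 lines, and -0.44, -0.46 and -0.94 over the 5365 genes. In all 3 lines 99 members fell (39%, against 19.8%), and leaving out CpFatB5 the count was 104 (40.9%, against 20%). Another 37 stayed within 2-fold in all lines (14.6%, against 42.4%). No member fell 2-fold in 1 line and rose 2-fold in another, as did 1.01% of the 5365 genes. With the lines as blocks, limma (adjusted p under 0.05 over all genes fitted, 4 residual degrees of freedom) called 151 members lower at 45 than at 25 DAF (59.4%, against 47.8% of the 5365 genes) and 23 higher (9.06%, against 6.32%). With size factors taken from well-expressed genes it called 48 higher (against 16.9%), and without the Youngsan libraries 8 (against 2.63%). These counts were 13 with total count scaling (against 3.37%) and 11 without the CpFatB5 libraries (against 3.71%). The wax section had 21 of its 23 members lower and none higher, and of the 8 LOX2-like genes none was called, also at an unadjusted p under 0.05. This test was added after the values were seen. Its p-values rest on how far the lines differed in their changes between stages, since their differences in level were taken out. The 8 DAF libraries, which the rule used, also enter that spread.

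The wax section contributed most of the deepest late falls. A fall of at least 16-fold from 25 to 45 DAF in all 3 lines was found in 14 members (5.51%, against 1.23% of the 5365 genes), and 12 of these were in the wax section. Such a fall was not limited to members, as the 66 genes with it among the 5365 included 23 of the wax section (0.429% of the 5365, against 4.72% of the members). These shares also reflect that the wax section held 23 of the 254 members and 68 of the 5365 genes. Within that section, 12 of the 23 members and 23 of all 68 genes fell at least 16-fold. A fall of at least 2-fold in all 3 lines was found in 19 of the 23 and 48 of the 68. The late fall was thus shared by wax section genes outside the set. The 23 wax section members had median log2 ratios of -4.25, -4.26 and -4.93 in Youngsan, CpFatB4 and CpFatB5, whereas the 223 genes with no description had -1.07, -0.95 and -1.61. Fewer than 20 raw counts were left at 45 DAF in all 3 lines in 10 members (3.94%, against 0.336%), namely the 4 MAH1-like and 2 CER4-like genes and BnaA06g40660D, BnaC07g47260D, BnaA03g49250D and BnaC07g41280D. BnaA06g40660D, which has the GO term ion binding, had 4777, 586 and 8.4 (Youngsan), 5387, 529 and 14.9 (CpFatB4), and 5393, 541 and 9.7 (CpFatB5).

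**Figure D4:**
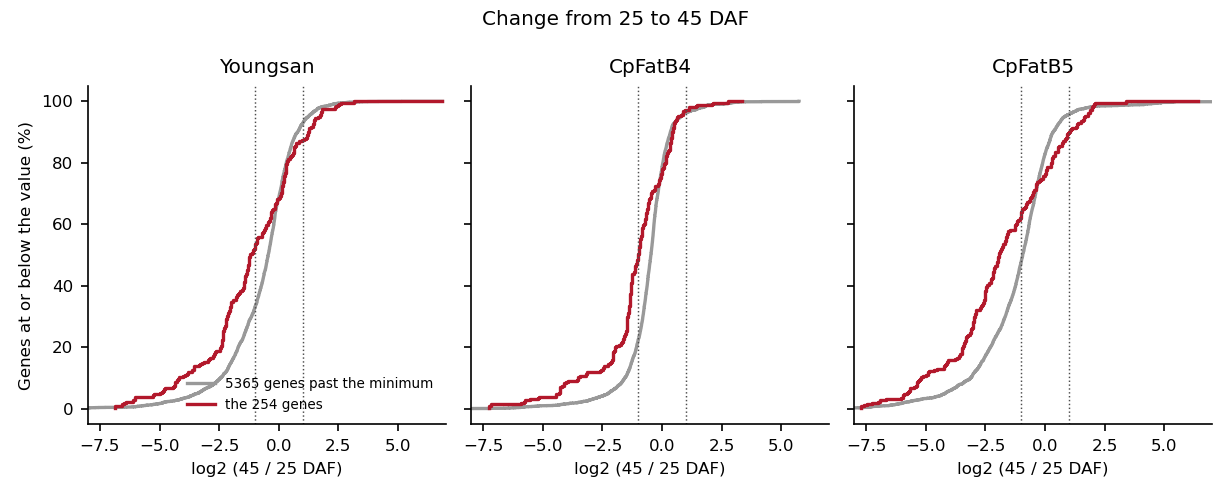
Share of genes (%) at or below a given log2 ratio of 45 to 25 DAF, with 1 panel per line. Red is the 254 genes and grey the 5365 genes past the minimum, and dotted lines mark 2-fold changes. At a log2 ratio of -1 the red curve stands at 53.1%, 49.6% and 63.4% and the grey at 32.9%, 22.2% and 47.7% in Youngsan, CpFatB4 and CpFatB5.

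A smaller number of members came back after 25 DAF. At least 2-fold rises were found in 33 members in Youngsan (13%, against 7.21%), 8 in CpFatB4 (3.15%, against 3.63%) and 27 in CpFatB5 (10.6%, against 4.31%). All 8 that rose in CpFatB4 rose in the other lines too (3.15%, against 1.64%), and another 13 rose in Youngsan and CpFatB5 only (5.12%, against 1.55%). Of all members, 2 ended above their 8 DAF level in all lines (0.787%, against 24.1%). BnaA05g14040D, with the GO term response to biotic stimulus, had 2072, 614 and 71317 (Youngsan), 3089, 1222 and 12653 (CpFatB4), and 2249, 504 and 42589.7 (CpFatB5). It rose 116, 10.4 and 84.5-fold from 25 to 45 DAF in Youngsan, CpFatB4 and CpFatB5 and was the most abundant member in each line at 45 DAF. BnaA10g18500D had 1957, 257 and 2286 (Youngsan), 1988, 510.5 and 3446 (CpFatB4), and 2036, 239 and 2542 (CpFatB5). With total count scaling, the rises in Youngsan, CpFatB4 and CpFatB5 numbered 32, 4 and 23 (12.6%, 1.57% and 9.06%, against 5.8%, 2.26% and 3.45%). With factors from well-expressed genes they numbered 35, 13 and 47 (13.8%, 5.12% and 18.5%, against 10.3%, 5.55% and 10.3%).

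The other 6 that rose in every line form 3 pairs of near-equal genes. BnaC03g48900D had 1746, 355 and 1807 (Youngsan), 1829.7, 343 and 1507 (CpFatB4), and 2543, 279 and 1114 (CpFatB5), and BnaA06g24340D followed it. BnaC03g73280D and BnaA03g30440D had 2301, 1406 and 1835 and 2114, 1399.6 and 1650.1 at 45 DAF in the 3 lines, after 2093, 1641 and 1634 and 2064, 1590.5 and 1609.8 at 8 DAF. BnaA05g11930D and BnaC04g14260D, among the strongest early falls, recovered only in part. BnaA05g11930D had 3282, 2093 and 2890.1 at 8 DAF, 75.5, 60.9 and 57.2 at 25 DAF and 207, 163 and 165 at 45 DAF.

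Compared over the whole interval, 219 members were at least 2-fold lower at 45 than at 8 DAF in all lines (86.2%, against 16.6%), a comparison that shares the 8 DAF libraries with the rule. The median over the members of the log2 ratio of 45 to 8 DAF was -3.30 (Youngsan), -2.76 (CpFatB4) and -3.91 (CpFatB5). These medians stand for falls of 9.82, 6.78 and 15-fold. In 17 members the level at 45 DAF was above that at 8 DAF in at least 1 line (6.69%, against 58.6%).

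Differences between the lines were few before 45 DAF. At 25 DAF, 5 members were at least 2-fold higher in CpFatB4 than in Youngsan (1.97%, against 0.205%) and 6 in CpFatB5 (2.36%, against 0.149%). None was 2-fold lower in CpFatB4 (0%, against 0.298%) or in CpFatB5 (0%, against 1.23%). At 8 DAF, 2 were lower in CpFatB4 (0.787%, against 1.47%) and none was higher (0%, against 2.46%). In CpFatB5, 5 were higher (1.97%, against 2.5%) and 1 lower (0.394%, against 0.634%). The rule used these libraries, so these counts are descriptions.

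At 45 DAF the transgenic lines differed from Youngsan in more of the genes. In CpFatB4, 51 members were at least 2-fold higher (20.1%, against 12.7%) and 27 at least 2-fold lower (10.6%, against 3.5%). Their median log2 ratio was 0.09, near the 0.03 of the 5365 genes, and for the same 254 genes it was -0.40 with counts scaled by library totals. That scaling turned the counts around, to 22 higher (8.66%, against 6.82%) and 64 lower (25.2%, against 16.1%). In CpFatB5, 60 members were lower (23.6%, against 19.5%) and 12 higher (4.72%, against 1.3%), and the median of -0.57 equalled that of the 5365 genes. With factors from well-expressed genes, 38 were lower (15%, against 4.73%) and 16 higher (6.3%, against 1.79%), and the median was -0.10. Both comparisons share the Youngsan library. Low counts were common at this stage, with 50, 53 and 100 members under 100 raw counts in Youngsan, CpFatB4 and CpFatB5. Among members with a mean of at least 200 normalised counts in the libraries compared, a limit chosen after the values were seen, 30 of 186 were higher and 19 lower in CpFatB4 (16.1% and 10.2%, against 12% and 3.23%). In CpFatB5, 8 of 164 were higher and 33 lower (4.88% and 20.1%, against 1.25% and 18.3%).

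The genes with the largest line differences at 45 DAF were mostly near-equal pairs. BnaA09g08190D, with the GO term macromolecule localization, had 13.4, 333 and 5.8 in Youngsan, CpFatB4 and CpFatB5 at 45 DAF. Its counterpart BnaC09g08390D had 12.3, 255 and 5.8, so both were high in CpFatB4 only, with log2 ratios to Youngsan of 4.63 and 4.37. At 25 DAF the same genes had had 1295, 1397 and 1119 and 1036, 1098 and 889. BnaA03g18540D was also highest in CpFatB4, with 6.7, 97.9 and 7.8. On the low side, BnaA02g31910D had 2288, 327 and 1742 and BnaC02g48590D, with the GO term ion binding, 2288, 330.2 and 1749, so CpFatB4 stayed low where the other lines rose again. BnaA05g14040D, described above, was the next lowest in CpFatB4 at a log2 ratio of -2.49.

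In CpFatB5 the lowest members against Youngsan were BnaC04g48550D and BnaA04g24700D, followed by the LOX2-like BnaA07g24880D. BnaC04g48550D had 141, 439.7 and 20.4 and BnaA04g24700D 129.9, 397 and 19.4 in Youngsan, CpFatB4 and CpFatB5 at 45 DAF, so CpFatB4 was the highest and CpFatB5 the lowest library. Above Youngsan, after the 2 WSD1-like genes, came BnaCnng14300D with 111, 95.4 and 306. All 3 LACS1-like genes were more than 2-fold above Youngsan in CpFatB4 and more than 2-fold below it in CpFatB5. In CpFatB5 this rests on normalised counts of only 37.8, 29.1 and 36.9. Their log2 ratios in CpFatB4 were only between 0.61 and 0.69 with total count scaling. In CpFatB5 they were between -0.94 and -0.81 with factors from well-expressed genes. In all, 14 members were at least 2-fold higher in CpFatB4 and at least 2-fold lower in CpFatB5. This share was near that of the 5365 genes (5.51%, against 4.92%), and none had the reverse (0.0% of the 5365 genes). The 14 became 8 with total count scaling (against 3%) and 6 with factors from well-expressed genes (against 2.12%).

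**Figure D5:**
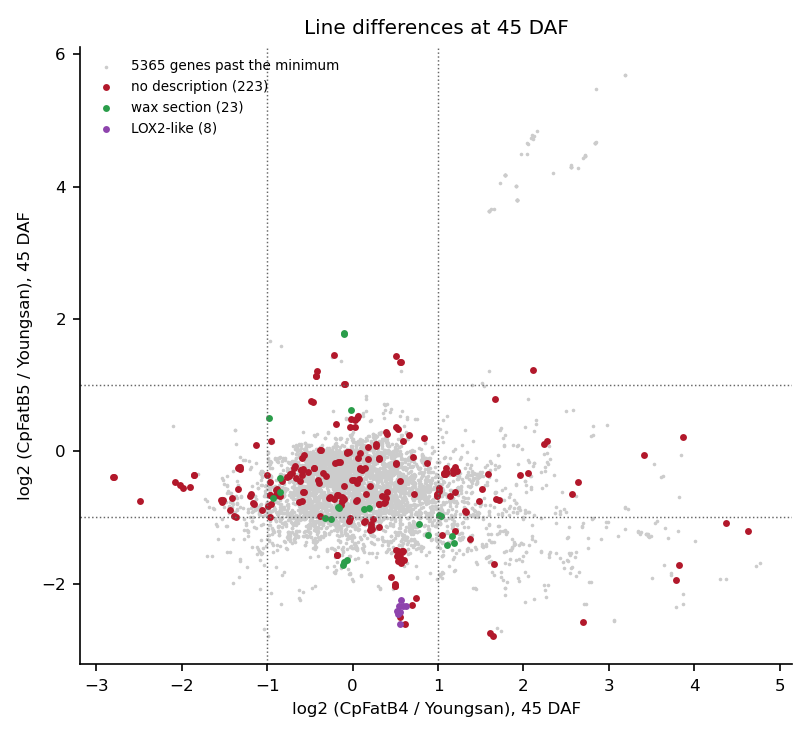
Log2 ratio of CpFatB4 to Youngsan (x axis) and of CpFatB5 to Youngsan (y axis) at 45 DAF, which share the Youngsan library. Small grey points are the 5365 genes past the minimum, red, green and purple the 254 genes without a description, of the wax section and LOX2-like, and dotted lines mark 2-fold. The LOX2-like genes lie together near 0.55 on the x axis and between -2.61 and -2.25 on the y axis, and the 2 WSD1-like genes are the uppermost of the 254.

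Other features of the members were read against the 5365 genes. The subgenomes of this allotetraploid were equally represented, with 128 identifiers of the A and 126 of the C subgenome, against 2676 and 2677 of the 5365 genes. Counts within 10% of those of another member in all 18 raw columns were found in 105 members, as for CER4-like and WSD1-like pairs, and joining such genes left 200 sets. Set against any of the 5365 genes, 106 members had such a partner (41.7%, against 60.9% of the 5365). Because it is not stated how reads with several matching sequences were treated, each such gene is uncertain as a separate measurement. The next or previous identifier on the same chromosome was a member in 18 members, including 3 MAH1-like genes, and was past the minimum in 37 (14.6%, against 15.5%). A GO term was given for 70 members (27.6%, against 14.1%) in the table used here, which lists differences of these same samples. Members were chosen by a difference of these samples too, so the shares of single terms are descriptions and not an independent comparison. The term transmembrane transporter activity was held by 9 members (3.54%, against 1.06%), oxidoreductase activity by 9 (3.54%, against 0.951%) and cell periphery by 11 (4.33%, against 1.51%). From 25 to 45 DAF, 3, 3 and 4 of these fell in all lines. That is 33.3%, 33.3% and 36.4%, against 29.8%, 43.1% and 32.1% of the genes past the minimum with each term. Members with the term biosynthetic process numbered 9 (3.54%, against 1.23%) and had median log2 ratios of 45 to 25 DAF of -2.29, -2.47 and -2.99. Of these, 6 fell in all lines (66.7%, against 40.9% of the 66 genes past the minimum with the term). Members with the term response to chemical also numbered 9 (3.54%, against 1.4%), with medians of 0.24, -0.14 and 0.25, and 1 of them fell (11.1%, against 29.3% of the 75 with the term) and 1 rose in all lines.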

How the data were processed

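Per the paper's methods, reads of TruSeq libraries sequenced on a HiSeq2000 were trimmed with SolexaQA and mapped by the authors with Bowtie2 2.1.0 to Genoscope *B. napus* coding sequences, allowing up to 2 mismatches. The counting tool and the treatment of reads with several matches are not given in the sources used here. The deposited table holds 18 raw columns (2 per library) of whole-number counts, recorded under the unit other because large values carry commas, and their lowest value is 1. It also holds 13 columns of counts that the authors normalized with DESeq and rounded, recorded as a score. The 18 raw columns were scaled by their median of ratios (Python 3.11.15, numpy 2.4.6, pandas 2.3.3; Wilson intervals with scipy 1.17.1; figures with matplotlib 3.10.9), and recomputed values lay within 0.500 of those 13 columns for all members. A library's normalised count is the mean of its 2 scaled columns, with a mean raw count under 3 set to 3, so folds against it are lower bounds.

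Background shares were computed over the 5365 genes past the minimum, or, where a mean of at least 200 at 45 DAF was asked, over the 5202 (CpFatB4) and 5026 (CpFatB5) of them that had it. A line at a stage has 1 library, so single lines were not tested. Stages 45 and 25 DAF were compared over the lines with limma 3.58.1 (line + stage, trend, log2 normalised counts of all 9 libraries, genes with a mean of at least 10, Benjamini-Hochberg adjustment). The rule, scalings and fit were tested on simulated data. Genes were named as the 10 highest at 8 DAF, the 10 largest falls, the 5 nearest each side of the threshold, the 5 largest rises and falls after 25 DAF, the 3 highest and lowest against Youngsan at 45 DAF, and described genes. The genes rising in all lines or under 20 raw counts at 45 DAF, and the non-members of the wax section, were named after their values were seen. Members and lists were chosen with earlier results of these data known. Supplementary tables were used for descriptions only, and they are shortened. RefSeq symbols matched 5 of the 254 identifiers, and no sequence is shown.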

Additional observations from a re-analysis of the deposited data

Results flagged for a closer look

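At 45 DAF, 14 members were at least 2-fold higher than Youngsan in CpFatB4 and at least 2-fold lower in CpFatB5. They are listed because the lines moved in opposite directions. Their share was near that of all genes past the minimum (5.51% of the members, against 4.92% of the 5365 genes). The list thus describes single genes and is not a result about the members. With 1 library per line the difference was not tested. The 14 became 8 with total count scaling (against 3%) and 6 with factors from well-expressed genes (against 2.12%). The widest was BnaA09g08190D, with log2 ratios to Youngsan of 4.63 in CpFatB4 and -1.21 in CpFatB5, and BnaC09g08390D had 4.37 in CpFatB4 and -1.08 in CpFatB5. These 2 rest on mean raw counts of 12 and 11 in Youngsan and 3 in CpFatB5. BnaA06g01430D had 3.82 in CpFatB4 and -1.72 in CpFatB5, BnaC06g06760D 3.78 in CpFatB4 and -1.94 in CpFatB5, and BnaA06g03570D 2.69 in CpFatB4 and -2.58 in CpFatB5. For the genes with strong early falls, the ratios were 1.65 in CpFatB4 and -1.70 in CpFatB5 for BnaA05g14890D and 1.20 in CpFatB4 and -1.21 in CpFatB5 for BnaC06g05340D. Mean raw counts in Youngsan, CpFatB4 and CpFatB5 were low here too, at 36.5, 77.5 and 6.5 for BnaA05g14890D and 22, 34 and 5.5 for BnaC06g05340D. The LACS1-like genes had 1.18 in CpFatB4 and -1.39 in CpFatB5 for BnaA04g26960D, 1.17 in CpFatB4 and -1.28 in CpFatB5 for BnaC03g25940D and 1.10 in CpFatB4 and -1.41 in CpFatB5 for BnaC04g51420D. Normalised counts of these genes in CpFatB5 were only 37.8, 29.1 and 36.9. BnaC04g48550D had 1.64 in CpFatB4 and -2.79 in CpFatB5, BnaA04g24700D 1.61 in CpFatB4 and -2.74 in CpFatB5, BnaA05g00640D 1.37 in CpFatB4 and -1.32 in CpFatB5, and BnaA06g39530D 1.04 in CpFatB4 and -1.27 in CpFatB5.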

How the results depend on the processing

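The rule was applied again under 11 alternatives. Members numbered 462 with total count scaling, 384 with median-of-ratios factors taken from well-expressed genes (mean count of 1000 or more), 1500 with a minimum of 200, 8202 with none, 231 with the minimum on all 9 libraries and 143 with a log2 threshold of -1.5. TMM scaling gave 247, either column alone 255 and 252, a floor of 1 count 254, and counting identical genes once 253. With a rule that left out CpFatB5, chosen after the values were seen, 279 genes were members, after leaving out genes that differed at least 2-fold in CpFatB4 alone at 8 DAF. Total count scaling kept 252 of the 254 and TMM 247. Falls from 25 to 45 DAF in Youngsan, CpFatB4 and CpFatB5 numbered 236, 308 and 305 of the 462 members with total count scaling. They numbered 611, 527 and 682 of 1500 with a minimum of 200 and 1789, 1422 and 1615 of 8202 with none. With the stricter threshold they were 71, 71 and 82 of 143. Shares over all genes were not computed for these changed sets. Over the 254 genes, total count scaling gave falls in 55.1%, 69.7% and 65.7%, against 35.9%, 51.4% and 54.1% of the 5365 genes. Factors from well-expressed genes gave 47.6%, 37% and 54.3%, against 28.4%, 14.1% and 29.8%. Median log2 ratios of 45 to 25 DAF in the same order were -1.05, -1.43 and -1.80 with total count scaling, -0.99, -0.70 and -1.09 with the factors from well-expressed genes, -0.52, -0.62 and -0.79 with a minimum of 200, -0.52, -0.83 and -1.69 with the minimum on all libraries, -0.96, -0.97 and -1.65 with the stricter threshold and 0.37, 0.10 and 0.69 with no minimum, the only setting with positive medians. With no minimum, low counts enter at all stages, and the cause was not tested. The CpFatB4 median against Youngsan at 45 DAF changed sign over the genes that met the rule with total count scaling (-0.36), a minimum of 200 (-0.094), the minimum on all libraries (-0.017), no minimum (-0.018) and the stricter threshold (-0.0084). The CpFatB5 median was -0.15 with the factors from well-expressed genes, -0.31 with a minimum of 200 and 0.32 with none. For the 5365 genes, these factors moved the median of 45 to 25 DAF by 0.25, 0.31 and 0.68, and total count scaling by -0.12, -0.56 and -0.19. In the comparison over the lines by limma, the 23 members higher at 45 DAF became 13 with total count scaling and 48 with the factors from well-expressed genes. They became 8 without the Youngsan libraries, 34 without the CpFatB4 libraries (against 6.02%) and 11 without the CpFatB5 libraries. The 151 lower (against 47.8% of the 5365 genes) ranged from 104 without the Youngsan libraries (against 21%) to 167 with total count scaling (against 60.8%). Without the line block, 153 were lower (against 48.4%) and 23 higher (against 6.24%). How far the members lay above the 5365 genes thus depended on the setting. At 45 DAF, depth limits genes below 100 raw counts, which are most numerous in CpFatB5.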
